A study of Rattus norvegicus with 29 samples.

Results

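The 7 genes described here encode the B chain of the complement protein C1q (C1qb), receptors for the constant part of immunoglobulin G (Fcgr2b and Fcgr3a), and proteins that mark microglia or myeloid cells more widely (Aif1, Ctss, Csf1r and Cd53). Members were taken as every probe set whose single gene symbol in the platform annotation is one of these names, which gave 9 of the 8740 probe sets that are not controls, for 6 of the 7 genes. The genes had been chosen on their signals by age, with the higher levels in aged rats already known, so the differences between aged and young rats are a description of the listed genes. Of the 9 probe sets, 7 probe sets of 5 genes had a present call on 9 or more of the 29 arrays and were tested (C1qb with 2, Aif1 with 2, Fcgr2b, Ctss and Cd53 with 1 each). Because a gene could pass through the age in which it was high, counts over these 7 are not counts over all members.

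RNA came from hippocampal CA1 of male rats of the Fischer strain, an inbred laboratory strain. The groups were 9 young rats (4 months), 10 mid-aged rats (14 months) and 10 aged rats (24 months). Rats of every age had been trained and tested in sequence over 7 days on both tasks that the labels abbreviate as SWM and OMT, and the tissue was taken 24 h later, so no age has untrained animals here. Each sample was hybridised to 1 Affymetrix rat genome U34 A array, on which a probe set is a group of short oligonucleotides whose combined brightness gives 1 signal and 1 detection call (present, marginal or absent). The labels number samples within an age without saying that each is 1 rat, which was assumed, and the n, SD and p-values below measure the spread between arrays.

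Microglia are the resident macrophages of the brain. C1q binds antibody complexes and also tagged synapses or debris, and starts the classical complement cascade; C1qb is 1 of its chains and is made in the brain mainly by microglia. Fcgr2b is the inhibitory Fc gamma receptor, whereas Fcgr3a is an activating one. Aif1 encodes the calcium-binding protein Iba1, Ctss the lysosomal protease cathepsin S that trims the class II invariant chain, Csf1r the growth factor receptor on which microglia depend for survival, and Cd53 a tetraspanin of the leukocyte surface.

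The sequences just upstream of the RefSeq transcription starts of the tested members are shown because PU.1, the transcription factor of the myeloid lineage, binds sites with the core letters GAGGAA, and because these genes stand together as myeloid genes. The table of RefSeq promoters (build GRCr8) held 5 of the 7 genes (C1qb, Fcgr3a, Ctss, Csf1r and Cd53). Each line gives the 250 bases before the start, 5′ to 3′ on the gene's strand, with the PU.1 core, as GAGGAA or its reverse TTCCTC, in capitals. They lie at chr5:154407828-154408077 (minus strand), chr2:185775146-185775395 (plus strand) and chr2:197087897-197088146 (minus strand).
C1qb: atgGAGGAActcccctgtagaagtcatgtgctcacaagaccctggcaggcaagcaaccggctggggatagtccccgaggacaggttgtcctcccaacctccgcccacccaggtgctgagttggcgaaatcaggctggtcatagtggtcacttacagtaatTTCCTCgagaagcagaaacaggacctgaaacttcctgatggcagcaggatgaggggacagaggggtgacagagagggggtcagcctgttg
Ctss: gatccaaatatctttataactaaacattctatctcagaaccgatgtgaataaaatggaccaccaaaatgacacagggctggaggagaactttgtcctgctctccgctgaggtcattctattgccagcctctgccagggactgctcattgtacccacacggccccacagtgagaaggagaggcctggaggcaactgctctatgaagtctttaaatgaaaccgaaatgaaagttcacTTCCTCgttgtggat
Cd53: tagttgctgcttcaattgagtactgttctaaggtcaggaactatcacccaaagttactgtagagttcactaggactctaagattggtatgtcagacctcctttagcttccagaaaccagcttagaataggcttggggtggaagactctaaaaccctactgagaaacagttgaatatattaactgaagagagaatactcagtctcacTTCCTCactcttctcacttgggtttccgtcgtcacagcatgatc

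The capitals mark 2 places in the C1qb window and 1 each in the windows of Ctss and Cd53. Counted back from the start, the core nearest to it ended 85 bases before the start of C1qb, 10 bases before that of Ctss and 39 bases before that of Cd53. All 5 listed genes held the core in these 250 bases, as did 7812 of all 33469 promoter windows, or 23.3%. The interferon factor repeat, written GAAA, any 2 bases and GAAA on either strand, stood in the windows of Fcgr3a and Ctss and in 3.41% of all windows. The STAT letters TTCNNNGAA, in 7.67% of windows, and the AP-1 letters TGANTCA, in 6.34%, stood in 0 of the 5 (N is any base; both strands). The TATA letters TATAAA, in 12.9% of windows on either strand, stood in that of Ctss, on the opposite strand. In the Ctss window the interferon repeat, 36 to 27 bases before the start, does not overlap the PU.1 core, 15 to 10 bases before it. A match is a string of letters in a window, not a measured site, and these arrays measured no binding.

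On the arrays, the listed genes that could be measured had higher signals in aged than in young rats on all 7 tested probe sets, with mid-aged rats between them in median on each. Taking each gene's brightest probe set, the median of the 5 aged minus young differences was 0.53 on the log2 scale, against -0.02 over all 3861 probe sets tested. Of the 5 genes, 4 passed the threshold of an adjusted p of 0.05 in the fit over all probe sets (C1qb, Fcgr2b, Aif1 and Ctss; limma, Benjamini-Hochberg), where 1.66% of all tested probe sets passed in either direction and 1.19% as higher in aged rats. Cd53 did not pass. As the genes were listed with this comparison in view, nothing is read from the count. In bulk tissue, more cells of a type and more RNA per cell cannot be told apart.

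The array files carry 2 styles of column name, a longer one that holds the letters CA1 and a shorter one without them. The labels do not give the meaning of this difference. The styles are uneven over the ages, with the longer one on 4 young, 6 mid-aged and 10 aged arrays. The shorter one is on 5 young, 4 mid-aged and 0 aged arrays. Within the longer style alone, the direction of all 7 probe sets was kept, at 0.64 and 0.78 for the C1qb probe sets, 0.79 for Fcgr2b, 0.45 and 0.34 for the Aif1 probe sets, 0.39 for Ctss and 0.62 for Cd53 (aged minus young, log2), but of the 5 genes only C1qb passed there, with 10 aged and 4 young arrays. When the fit over all arrays also held the name style, C1qb, Fcgr2b and Ctss passed and Aif1 did not (adjusted p = 0.0759). Of all 3861 probe sets, 55 passed in that fit and 16 within the longer style. By rank, 6 arrays correlated least with the rest (aged 3, 4 and 8, mid-aged 1 and 8, and young 4), all of them of the longer style. Leaving those 6 out changed none of the 4 calls, in a fit in which 131 of the 3861 probe sets passed, against 64 with all arrays.

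**Figure D1:**
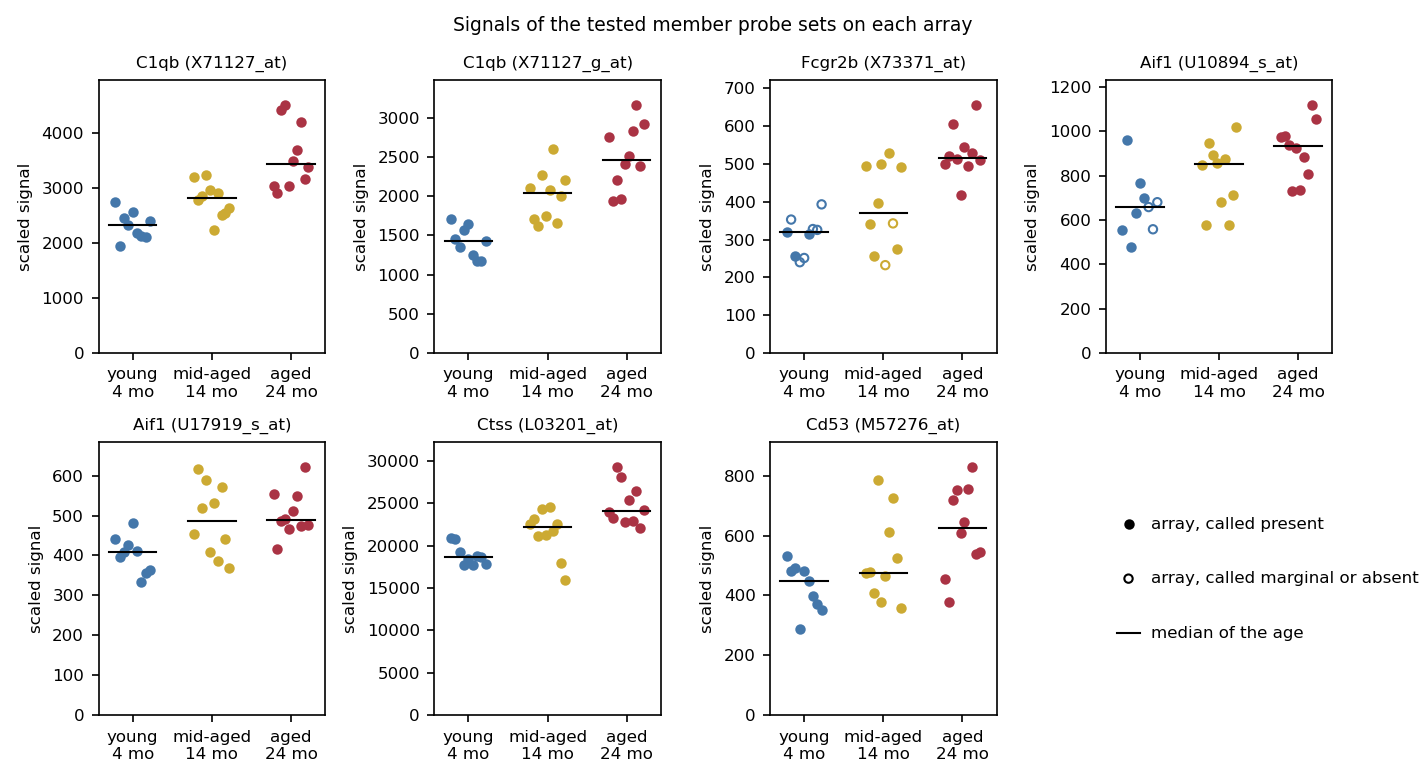
Scaled signal of each tested probe set on each array (vertical axis from 0; horizontal axis, age in months), with filled points for arrays called present, open points for arrays called marginal or absent, and a bar at the median of the age. The highest young array lies below the lowest aged array for both C1qb probe sets, Fcgr2b and Ctss, while the ages overlap for both Aif1 probe sets and Cd53.

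Every aged array lay above every young array on 4 of the 7 tested probe sets, those of C1qb, Fcgr2b and Ctss, as on 0.337% of all tested probe sets.

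C1qb is the complement gene of the group, and both of its probe sets are named for the same database entry, so they are not independent readings. On the first, X71127_at, signals ran from 1939 to 2753 in young rats (median 2328), from 2230 to 3243 in mid-aged rats (median 2821) and from 2909 to 4519 in aged rats (median 3437). Every array was called present. All 10 aged arrays lay above the highest young array, and 6 of the 10 aged arrays also lay above the highest mid-aged one. The mean log2 signal was 11.79 ± 0.24 in aged rats and 11.17 ± 0.16 in young rats (SD, n = 10 and 9), a difference of 0.62 ± 0.09 (SE), or 1.54-fold.

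The second C1qb probe set, X71127_g_at, showed the widest age difference of the 7. Its signals ran from 1170 to 1711 in young rats (median 1426), from 1615 to 2610 in mid-aged rats (median 2041) and from 1942 to 3171 in aged rats (median 2469). The aged arrays again stood clear of every young array, and 10 of 10 mid-aged arrays lay above the young median. Aged exceeded young rats by 0.82 ± 0.105 (SE) on the log2 scale, 1.77-fold. Mid-aged exceeded young rats by 0.49 ± 0.105 (SE), which was the single member probe set past the threshold in that comparison (adjusted p = 0.0198), where 0.414% of all tested probe sets passed. Between mid-aged and young rats it was 0.53 within the longer name style (6 and 4 arrays; adjusted p = 0.715) and 0.41 within the shorter (4 and 5 arrays; adjusted p = 0.200), so the call did not stand within either style. It was also lost on leaving out mid-aged 4 or 7 or young 7, 8 or 9, with differences of 0.45 to 0.47 (adjusted p from 0.05 to 0.0683).

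Fcgr2b, whose receptor carries an inhibitory motif in its tail, differed with age in detection as well as in signal. Present calls numbered 3 among the 9 young arrays, 8 among the 10 mid-aged arrays and 10 among the 10 aged arrays. Signals ran from 240 to 393 in young rats (median 321), from 232 to 530 in mid-aged rats (median 370) and from 418 to 657 in aged rats (median 516). The mid-aged arrays spanned both other ages, with 5 of 10 above the highest young array and 6 of 10 below the lowest aged one. Their SD on the log2 scale was 0.44, against 0.24 in young and 0.175 in aged rats. The aged minus young difference was 0.79 ± 0.14 (SE), 1.72-fold. Since 6 of 9 young arrays were called absent, this fold depends on how low signals are treated. With the floor under low signals raised to the 75th percentile of absent values, the difference was 0.47, still past the threshold.

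Fcgr3a has no value here. No probe set has it as the single gene symbol. The 2 probe sets that carry an Fc gamma receptor name other than Fcgr2b each carry 2 gene symbols. Neither symbol is Fcgr3a, and these probe sets were not assigned to it.

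Among the marker genes, Ctss was the one whose aged and young arrays did not overlap. Cathepsin S signals ran from 17684 to 20841 in young rats (median 18703), from 15961 to 24530 in mid-aged rats (median 22140) and from 22042 to 29275 in aged rats (median 24063). All arrays were called present. The mid-aged group held both low and high arrays, as 8 of 10 lay above the highest young array while mid-aged 10 and 9 lay at 15961 and 17979, the first of them below every young array. The aged minus young difference was 0.39 ± 0.08 (SE) on the log2 scale, 1.31-fold, from a mean of 14.59 ± 0.14 in aged rats against 14.20 ± 0.09 in young rats (SD, n = 10 and 9).

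Aif1, the gene of the microglial stain Iba1, was read by 3 probe sets that did not give the same picture. On U10894_s_at signals ran from 476 to 961 in young rats (median 658), from 575 to 1018 in mid-aged rats (median 853) and from 730 to 1120 in aged rats (median 932). The ages overlapped, with 4 of 10 aged arrays above the highest young array. The difference was 0.48 ± 0.12 (SE), 1.39-fold, and its call was the least steady of the 4 genes. It was lost on leaving out any 1 of 10 single arrays (aged 1, 3, 5, 9 or 10, or young 2, 4, 5, 8 or 9), with differences of 0.42 to 0.48 (adjusted p from 0.0502 to 0.0784), which left 3 of 5 genes past the threshold in each case. In those fits from 52 to 77 of all 3861 probe sets passed. On U17919_s_at signals ran from 332 to 481 in young rats (median 408), from 368 to 616 in mid-aged rats (median 486) and from 417 to 622 in aged rats (median 489). There the mid-aged and aged arrays covered nearly the same range, with aged minus young at 0.33 ± 0.10 (SE) and aged minus mid-aged at 0.06 ± 0.09 (SE). In the deposited value table of the whole series, the aged minus young difference of this probe set was 0.68 and past the threshold (adjusted p = 2.04e-04). The third Aif1 probe set, U33471_at, was called absent on all 29 arrays, with signals from 164 to 369. The suffix of the first pair of names is the one Affymetrix gave to probe sets that may match more than 1 transcript.

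Cd53, the leukocyte tetraspanin, also overlapped between ages. Its signals ran from 287 to 531 in young rats (median 447), from 358 to 786 in mid-aged rats (median 476) and from 378 to 830 in aged rats (median 626). All arrays were called present. Of the 10 aged arrays, 8 lay above the highest young array and 1 lay below the young median. The aged minus young difference was 0.53 ± 0.15 (SE) on the log2 scale, 1.45-fold, and missed the threshold. Leaving out aged 2, the lowest aged array, brought Cd53 past the threshold, at an adjusted p of 0.0198 in limma. All 5 genes passed in that fit, in which 84 of all 3861 probe sets passed, against 64 with all arrays.

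Csf1r was called absent on 29 of 29 arrays, so no level is given for it and no age difference was tested. Its signals ran from 36 to 149 in young rats, from 67 to 404 in mid-aged rats and from 86 to 225 in aged rats, mostly under the floor of 161 that was set at the median of absent values. The gene of its ligand Csf1 was also called absent on all 29 arrays.

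**Figure D2:**
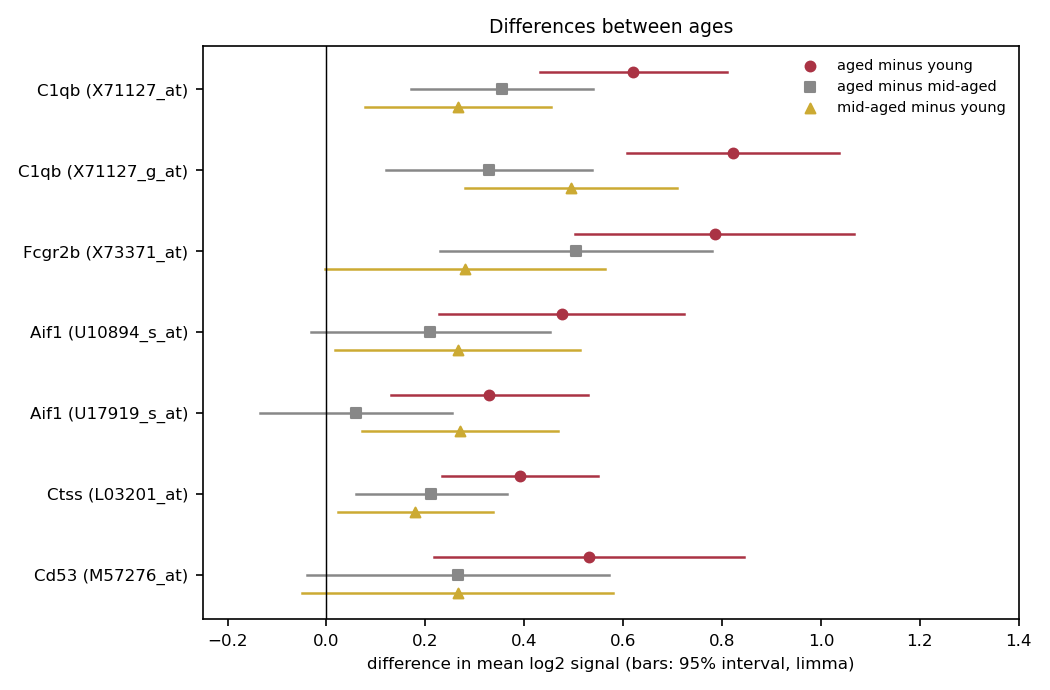
Difference in mean log2 signal between ages for each tested probe set (points) with its 95% interval from limma (bars), for aged minus young, aged minus mid-aged and mid-aged minus young. The aged minus young points run from 0.33 to 0.82; the other 2 differences of each probe set add up to it and share the mid-aged arrays.

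The mid-aged rats lay between the other ages in mean on each probe set. The share of the aged minus young difference that was already present at 14 months was 42.8% and 60.0% on the C1qb probe sets, 35.7% for Fcgr2b, 55.9% and 81.8% for Aif1, 45.9% for Ctss and 49.9% for Cd53. Mid-aged minus young differences were above 0 on all 7 probe sets (median 0.27 on the log2 scale), as were aged minus mid-aged differences (median 0.27). Between mid-aged and young rats 0 of 5 genes passed by their brightest probe sets, against 0.414% of all tested probe sets, and between aged and mid-aged rats 0 of 5, against 0.0518%. These comparisons share arrays with the one in view when the genes were listed.

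Departure from a straight line in age was tested as the distance of the mid-aged mean from the midpoint of the other ages. The ages of 4, 14 and 24 months are evenly spaced, and this contrast is nearly uncorrelated with aged minus young. As the genes were chosen on their signals by age, it is a description as well. On that test 0 of the 7 member probe sets passed (limma, adjusted p from 0.904 to 1.00), and 0 of 3861 probe sets passed in all, with 202 at an unadjusted p under 0.05, none of them a member. With 0 passing in all, the count does not set the members apart from other probe sets. The largest departures were -0.11 for Fcgr2b (95% interval -0.35 to 0.13) and 0.10 for Aif1 on U17919_s_at (95% interval -0.06 to 0.27). Mid-aged rats lay nearer to young ones for Fcgr2b and nearer to aged ones for Aif1 on U17919_s_at. For Ctss the departure was -0.02 (95% interval -0.15 to 0.12), and for C1qb on X71127_at it was -0.04 (95% interval -0.21 to 0.12).

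**Figure D3:**
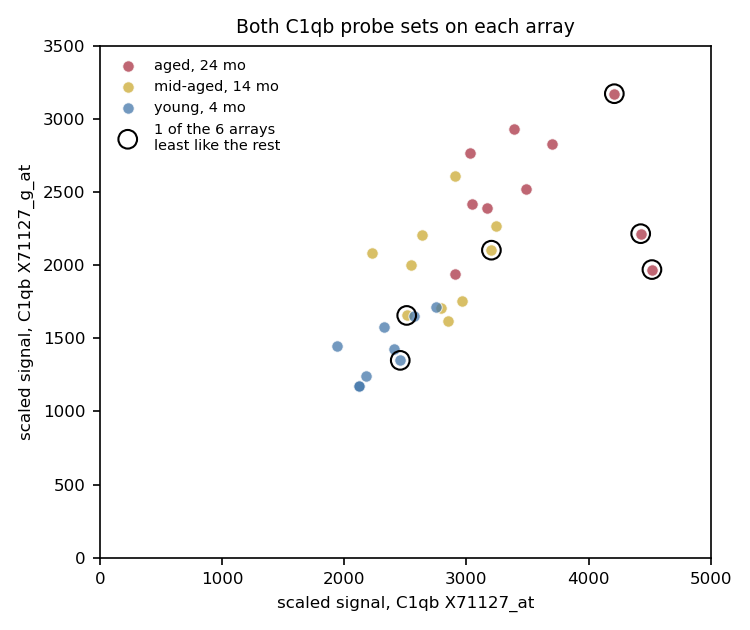
Scaled signals of both C1qb probe sets on each of the 29 arrays (1 point an array, coloured by age; both axes from 0), with the 6 arrays least like the rest ringed. Aged 3 and 4 lie far to the right at 4427 and 4519 on X71127_at but at 2214 and 1969 on X71127_g_at, below most aged arrays.

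The 2 C1qb probe sets ranked the aged arrays differently. Aged 4, 3 and 8 were the 3 highest on X71127_at, with 4519, 4427 and 4211. On X71127_g_at aged 8 was again the highest at 3171, but aged 4 and aged 3 ranked ninth and eighth of 10 with 1969 and 2214. The same 3 arrays were also the 3 highest aged arrays for Ctss (28075, 29275 and 26397 for aged 4, 3 and 8) and among the 4 highest for Cd53 (753, 721 and 830). They belong to the 6 arrays least like the rest. Aged 4 and 3 also had the highest ratios of the 3′ to the 5′ Gapdh control probe set, a measure of how intact the RNA was, at 0.813 and 0.475 on the log2 scale, while the other aged arrays ran from -0.312 to 0.165. Without the 6 arrays the aged minus young difference was 0.50 and 0.84 for the C1qb probe sets, 0.32 for Ctss and 0.42 for Cd53. With the Gapdh ratio as a covariate these were 0.60, 0.86, 0.37 and 0.50. The part of RNA quality in the values was not tested beyond these fits.

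The members were also compared in their deviations from the age mean over the 29 arrays, which leave out the differences between age means. The genes were listed from signals on these same arrays, so the correlations are a description. Of 21 pairs of member probe sets, 19 join different genes, and their Pearson correlations had a median of 0.12, from -0.42 to 0.53, with 12 of 19 above 0. None of the 21 passed after Benjamini-Hochberg adjustment over the 21 (permutation within ages, two-sided). The highest was between Ctss and Cd53 (r = 0.53, Spearman's rho = 0.52, permutation p = 0.00621, adjusted p = 0.13; r = 0.46 without the 2 arrays farthest out in Ctss), with r of 0.68 in young, 0.50 in mid-aged and 0.55 in aged rats. C1qb on X71127_at followed Cd53 with r = 0.47 (rho = 0.45, permutation p = 0.0145, adjusted p = 0.152) and Ctss with r = 0.40 (rho = 0.41, permutation p = 0.0358, adjusted p = 0.251). Both of these stood highest in aged rats, at 0.84 and 0.85, against 0.25 and 0.02 in young rats, a difference that was not tested. Without the 2 arrays farthest out in C1qb they were 0.45 and 0.49, and without the 6 unlike arrays 0.45 and 0.185.

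Probe sets of the same gene had correlations inside the range of those between different genes. The C1qb pair had r = 0.21 (rho = 0.28, permutation p = 0.312, adjusted p = 0.468), with 0.67 in young, 0.18 in mid-aged and -0.01 in aged rats, 0.39 without the 6 arrays and 0.40 without the 2 farthest out. The Aif1 pair had r = -0.24 (rho = -0.16, permutation p = 0.255, adjusted p = 0.412; r = -0.26 without the 2 farthest out), at 0.08 in young, -0.62 in mid-aged and 0.22 in aged rats. The lowest pair was Fcgr2b with Aif1 on U17919_s_at (r = -0.42, rho = -0.45, permutation p = 0.0666, adjusted p = 0.28; r = -0.39 without the 2 farthest out), at -0.63 in young, -0.57 in mid-aged and 0.44 in aged rats. Within ages, the Gapdh ratio had r = -0.48 with C1qb on X71127_g_at (rho = -0.45, permutation p = 0.0113, adjusted p = 0.0658 over 7 relations) and r = 0.43 with Ctss (rho = 0.48, permutation p = 0.0188, adjusted p = 0.0658). Leaving out the 2 arrays with the most extreme ratios gave -0.37 and 0.27. The other 5 relations to the Gapdh ratio, and all 7 to the share of probe sets called present on an array, also missed the threshold. By age (young, mid-aged, aged), r with the Gapdh ratio was 0.45, -0.003 and 0.88 for Ctss. For C1qb on X71127_at it was -0.39, -0.06 and 0.73. In aged rats it was -0.545 for C1qb on X71127_g_at, 0.16 for Fcgr2b and 0.35 for Cd53. There it was -0.61 for Aif1 on U10894_s_at and -0.37 on U17919_s_at. Differences between ages in these values were not tested.

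**Figure D4:**
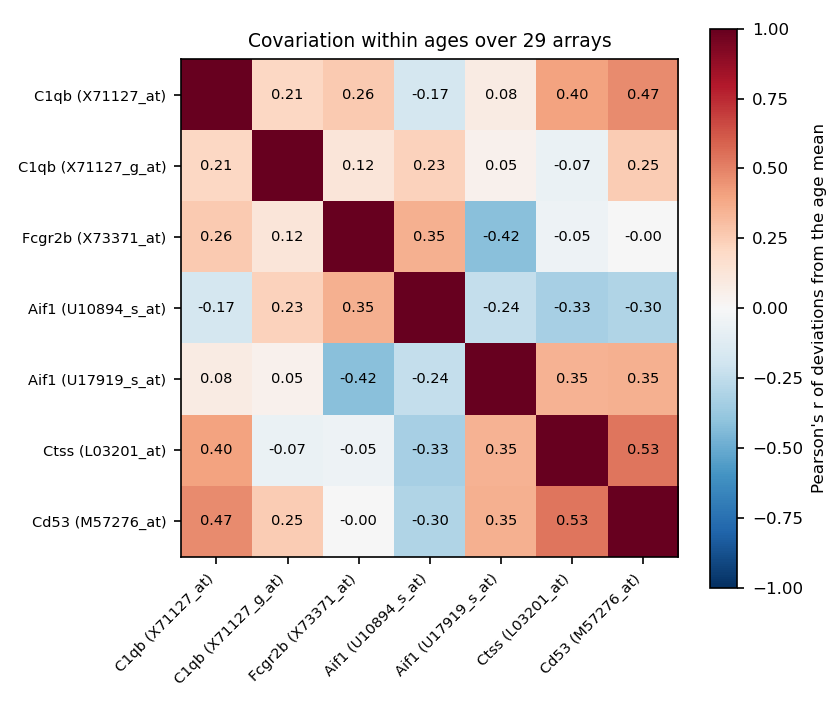
Pearson's r between the tested member probe sets in deviations from the age mean over 29 arrays (colour from -1 to 1, values printed). The highest off-diagonal value is 0.53, for Ctss with Cd53, and the lowest is -0.42, for Fcgr2b with Aif1 on U17919_s_at; none passed after adjustment.

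The genes most like each member in these deviations were sought among 2402 tested genes outside the list; the correlations are descriptions over 29 arrays that share the same arrays and scaling. For C1qb they were Ivns1abp (r = 0.70), Cd48, an immunoglobulin-family protein of the leukocyte surface (0.67), and the peroxisomal membrane protein gene Pxmp2 (0.67) on X71127_at. On X71127_g_at they were the natriuretic peptide gene Nppa (0.67), the noncoding RNA Gas5 (0.62) and Qdpr, which regenerates tetrahydrobiopterin (0.62). The C1qb probe sets shared none of their 3. For Fcgr2b they were Ier3 (0.66), the adaptor gene Shc2 (0.59) and Arpc1b, a subunit of the actin-nucleating Arp2/3 complex (0.59). For Ctss they were the ATP synthase gene Atp5f1b (0.77), Churc1 (0.77) and Litaf (0.73), and for Cd53 the translation elongation factor gene Eef1a1 (0.77), the ectonucleotidase gene Entpd2 (0.77) and again Churc1 (0.74). For Aif1 they were Aqp9, Pak3 and Ndufc1 on U10894_s_at (0.61 to 0.62) and Lnpep, Nnt and Ugdh on U17919_s_at (0.48 to 0.51). Of these genes, Qdpr passed aged against young, at 0.48 on the log2 scale (adjusted p = 8.19e-04).

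Other genes of the same pathways were read from lists fixed beside the members, and none passed aged against young on its brightest probe set. Of 5 further complement genes tested, 0 passed in either direction, and their median difference was 0.05 on the log2 scale. The 3 brightest were clusterin (Clu), which restrains the terminal complex, at 0.14 ± 0.09 (SE), the C1q-binding protein gene C1qbp at 0.05 ± 0.08, and the lectin pathway protease gene Masp1 at -0.24 ± 0.145. C1qc, which encodes another C1q chain, was called absent on all 29 arrays on each of its 3 probe sets, and C3 was present on at most 3. Of 5 further genes of Fc receptors and their signalling, 0 passed (median -0.04). Fyn, a Src-family kinase, was at -0.07 ± 0.10, Fcgrt, the neonatal Fc receptor, at -0.04 ± 0.07, and the phospholipase gene Plcg1 at 0.18 ± 0.10. Of 4 genes of the CSF1 receptor axis and myeloid transcription, 0 passed (median 0.07). The adaptor Grb2 was at 0.09 ± 0.07, the transcription factor Maf at 0.37 ± 0.10 (adjusted p = 0.0711) and the cytokine receptor subunit Csf2rb at -0.07 ± 0.18.

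Cathepsin S stood beside 7 other cathepsin and cystatin genes, of which 0 passed and 6 lay above 0 (median 0.18). Cystatin C (Cst3), an extracellular inhibitor of cysteine cathepsins, was at 0.18 ± 0.09, Ctsb at 0.20 ± 0.08 and cystatin B (Cstb) at 0.18 ± 0.10. Of 6 other tetraspanin genes, 0 passed on their brightest probe sets and 5 lay above 0 (median 0.21). Cd81 was at 0.11 ± 0.08, Cd63 at 0.33 ± 0.13 and Cd82 at 0.35 ± 0.10, and a second Cd82 probe set was higher in aged rats past the threshold, at 0.47 ± 0.11 (adjusted p = 0.0127). The counts of 0 are at an adjusted p of 0.05 over all 3861 probe sets in limma, where 548 had an unadjusted p under 0.05.

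The microglial label rests on few detected markers. Of 48 listed microglia and macrophage markers, 29 had a probe set and 13 were tested, 3 of them members. Another 13, among them the leukocyte marker Ptprc, were called absent on every array. Itgam and Cx3cr1 were present on 1 and 7 of 29 arrays and were not tested. Of the 10 tested markers outside the list of members, 0 passed aged against young, 7 lay above 0, and the median was 0.04 on the log2 scale. The 3 brightest were Sirpa at 0.04 ± 0.10, the coronin gene Coro1a at -0.16 ± 0.08 and Cd47 at 0.29 ± 0.24. P2ry12, a purinergic receptor of resting microglia that was named after its values were seen, was present on all 29 arrays. It was the highest of the 10, at 0.39 ± 0.12 (limma, adjusted p = 0.0997). The lowest of the 10 was Cd14, at -0.32 ± 0.14 (limma, adjusted p = 0.285). The summed signal of the markers outside the list ran from 19260 to 22158 in aged rats (median 20371) and from 16805 to 21471 in young rats (median 19315), which overlap. That sum takes in markers called absent on every array and others not tested, so it is not a level of microglia.

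**Figure D5:**
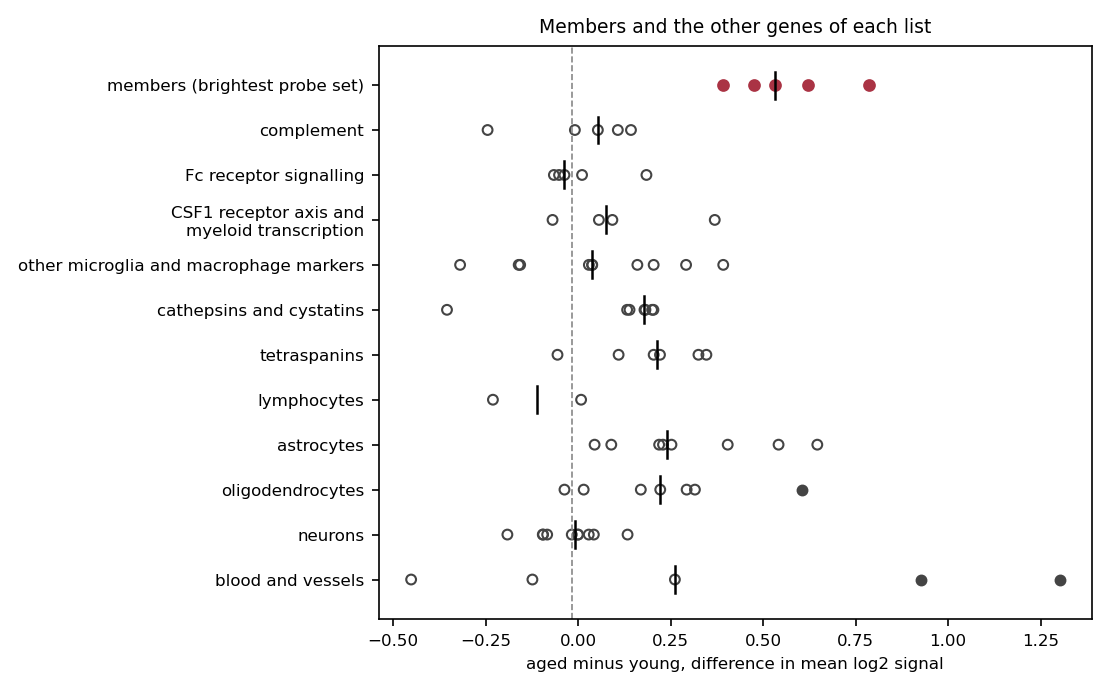
Aged minus young difference in mean log2 signal for the 5 tested members (top row, brightest probe set of each) and for other tested genes by list. Each point is 1 gene, filled where past the threshold in the fit over all probe sets, members excepted. Bars give the median of the row and the dashed line the median of all probe sets. The lists of choroid plexus and meninges, CA1 pyramidal cells, granulocytes and mast cells, and perivascular and other macrophages are not drawn. The members lie from 0.39 to 0.79, and the filled points of other lists are Mag, Hbb and Hbb-b1.

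Markers of other cell types were read in the same arrays. Summed signals again include probe sets called absent or not tested, so they are not levels of a cell type. Of 21 lymphocyte markers, 15 had a probe set, 12 of them were absent on every array and 2 were tested, with 0 past the threshold; summed signals ran from 2576 to 4868 in aged rats and from 2728 to 4565 in young rats. Of the 10 markers of perivascular and other macrophages 6 had a probe set, 5 of these were absent on every array and 0 were tested, with summed signals from 1200 to 1990 in aged rats and from 1125 to 2009 in young rats. Of 5 tested markers of blood and vessels, the beta-globin genes Hbb and Hbb-b1 passed, at 1.30 ± 0.22 and 0.93 ± 0.13 (SE). The summed signal of that list ran from 25162 to 41512 in aged rats, above the 14071 to 22322 of young rats. That sum includes these globins, and no other tested gene of the list passed. Of 7 oligodendrocyte genes, Mag passed at 0.61 ± 0.10 on its brightest probe set. Its 2 other tested probe sets also passed in limma, at 1.15 ± 0.195 (adjusted p = 4.17e-04) and 0.34 ± 0.08 (adjusted p = 0.0191). Summed signals of the oligodendrocyte list ran from 76744 to 116498 in aged rats and from 69801 to 84272 in young rats. Of 8 astrocyte genes 0 passed, all 8 lay above 0 (median 0.24), and summed signals ran from 92092 to 142058 in aged rats and from 81018 to 120306 in young rats. Of 10 neuronal genes 0 passed (median -0.01), as did 0 of 3 markers of CA1 pyramidal cells (Nrgn, Pou3f1 and Camk2a; Slc17a7 was absent on every array), 0 of 6 of choroid plexus and meninges (median -0.26) and 0 of 1 of granulocytes and mast cells, each by its brightest probe set. A second probe set of the collagen gene Col1a1, from the meningeal list, was lower in aged rats past the threshold, at -0.57 ± 0.13 (SE; adjusted p = 0.0101). The part of blood, oligodendrocyte or astrocyte RNA in the members' differences was not tested.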

How the data were processed

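Per the file headers, the authors deposited for each array a signal (an intensity on a linear scale) and a detection call for each of 8799 probe sets, with column names of the Microarray Suite 5 type; the software version is not stated there. The deposited values show that arrays had been scaled to nearly the same trimmed mean. A further column in 1 file, belonging to another array, was not used (1 column). A deposited table of the whole series holds an intensity from -39359 to 70317 (column medians 314.8 to 467.8), on an uncentred linear scale in the same direction; how it was made is not stated. By rank each of its 29 columns correlated best with its own array, while 11 of the 29 arrays correlated best with their own column (lowest correlation of a matching pair 0.851). It served as an alternative.

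The 59 controls were dropped, arrays were scaled to equal means without the outer 2% at each end (factors 0.9986 to 1.002), signals were floored at the median of absent values (160.8) and log2 was taken. The 3861 probe sets with a present call on 9 or more of 29 arrays were tested. An array had present calls for 35.6% to 46.5% of its probe sets, and the number of arrays limits precision. All ages were fitted together in limma 3.58.1 (R 4.3.3; lmFit, eBayes), with Benjamini-Hochberg adjustment over all 3861 and a threshold of 0.05. A gene is represented by its brightest tested probe set. Only the limma fit was tested on simulated data, with normal noise drawn independently for each probe set and array. The scaling, floor, filter and correlations were not tested in that way. Correlations used 100000 permutations within ages (Python 3.11.15, numpy 2.4.6, pandas 2.3.3; figures with matplotlib 3.10.9).

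Gene symbols are those of the platform annotation, single for 7006 probe sets, several for 308 and missing for 1426. Members and lists were chosen with earlier results of these data known. Named genes are all members, the 3 genes most correlated with each, from each pathway list those past the threshold and the 3 brightest, and from lists of other cell types those past the threshold. Outside that rule, and after their values were seen, C1qc, C3, Csf1, Ptprc, Itgam, Cx3cr1, P2ry12, Nrgn, Pou3f1, Camk2a and Slc17a7 are named for their detection or role. Col1a1 is named for its second probe set, and Cd14 as the lowest of the tested markers beside P2ry12. Promoters come from RefSeq (GRCr8); Fcgr2b and Aif1 are not shown. Alternatives covered scaling, the series table, the filter, the floor, variance models, the replicate number, the Gapdh ratio, the name style, unlike arrays, the groups fitted and leaving out each array.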

Additional observations from a re-analysis of the deposited data

How the results depend on the processing

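The count of 4 of 5 genes past the threshold aged against young was 3 with no filter on dim probe sets or with the name style as a term, 5 with array weights or the replicate number as a block, 1 among arrays of the longer style, and from 3 to 5 on leaving out each array; it was 4 under the other alternatives run. The counts for the other comparisons were 0 under every alternative run, leaving out each array included, except that mid-aged against young was 1 when any tested probe set of a gene could count. Fits within the shorter style were added after seeing the data. Adjusted p-values aged against young, over 45 alternatives each, ran from 2.76e-05 to 0.0235 for C1qb, from 8.8e-05 to 0.0737 for Fcgr2b, from 5.69e-04 to 0.17 for Ctss, from 0.00236 to 0.314 for Aif1 and from 0.0198 to 0.242 for Cd53. Within the longer style, where Fcgr2b (0.0737), Ctss (0.17) and Aif1 (0.314) missed the threshold, the fit holds fewer arrays. Over all probe sets 64 passed aged against young, 326 with array weights, 131 without the 6 unlike arrays and 77 with the replicate block. With the name style as a term 55 passed, within the longer style 16, and with no filter 63 of 8740.

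The reported fit did not pair arrays by replicate number, a choice that the correlations below do not decide. Same-numbered arrays of different ages had a mean correlation of 0.12 (28 pairs, from -0.2 to 0.58, 13 of them over 0.1), against -0.0078 for different numbers (252 pairs, 81 over 0.1), and 3 of 29 arrays matched best with their own number. With the block Cd53 passed (0.56, adjusted p = 0.0221) and the call of C1qb on X71127_g_at for mid-aged against young was lost (0.48, adjusted p = 0.0551).

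Of 1260 member values under alternatives, 36 changed sign, all of them departures from the straight line in age near 0, and no value past the threshold did. For Aif1 on U10894_s_at these were -0.0227 with the Gapdh ratio and -0.0108 within the longer style, and values ran from -0.0138 to 0.0778 on leaving out each array. For Cd53 they were 0.00245 with quantile scaling, 0.122 with the series table, 0.0443 with array weights, 0.0136 with the replicate block, 0.0465 with the Gapdh ratio, 0.0739 within the longer style and 0.0313 without the 6 unlike arrays, with a range of -0.0714 to 0.0546 on leaving out each array. For C1qb on X71127_at they were 0.0182 with array weights and 0.0187 without the 6 arrays. For Ctss they were 0.00419 with quantile scaling, 0.0353 with array weights, 0.0152 with the Gapdh ratio and 0.00276 without the 6 arrays, with a range of -0.0384 to 0.0305 on leaving out each array. The cause was not tested. The series table gave the largest aged minus young differences for C1qb on X71127_g_at (1.09), Aif1 (0.70 and 0.68) and Fcgr2b (0.85), against 0.38 for Cd53.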
